A study of Mus musculus with 20 samples.

Results

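The 10 libraries described here compare bone marrow haematopoietic stem cells (HSC) that carried the leptin receptor on their surface (Lepr+) with HSC that did not (Lepr-), in 5 pairs of libraries. They were chosen by their labels, 5 Lepr+ HSC and 5 Lepr- HSC libraries, out of 20 libraries in the study. The other 10 hold multipotent progenitors (MPP) sorted the same way. All cells came from C57BL/6 mice 7 to 9 weeks old, with no genetic change or treatment named in the labels. Each sample held 1000 to 8000 cells pooled from 2 mice. Marrow was partly depleted of mature cells, and the sorter took cells without lineage antigens that carried Sca-1 and c-Kit, with CD150+CD48- for HSC and CD150-CD48- for MPP. Each of these gates was split by an antibody to Lepr, so Lepr+ and Lepr- are levels of surface protein, not genotypes. The comparison asks how the transcriptome of HSC differs with that receptor.

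Leptin is a hormone of fat cells that reports energy reserves to the brain and other organs, and its receptor acts through JAK2 and STAT3. In bone marrow, Lepr is best known as a marker of stromal cells around blood vessels that make the HSC niche factors Cxcl12 and stem cell factor. HSC are mostly quiescent, and within the CD150+CD48- gate they differ in how strongly they carry the transcripts of the platelet lineage.

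Gene totals ran from 10840418 to 31589794 counts over the 10 HSC libraries. Read pairs given to no gene made up 21.4% to 36.8% of each HSC library. Levels are given in CPM, the usual counts per 1000000 of library size, here after edgeR's TMM factors, and values for 5 libraries follow the order of replicates 1 to 5. Each replicate number carried 1 date in its file name in all groups (June for replicates 1, 3 and 5, July for replicates 2 and 4), and what that date records is not stated. The design text names 2 mice for each of 5 replicates, so libraries with the same number were read as pairs. Of the HSC libraries, Lepr+ replicate 5 was the least like its own group (mean correlation 0.837, against 0.872 to 0.915 for the others), and Lepr+ replicates 2 and 3 held plasma cell transcripts, as described further on. Kit, which encodes c-Kit, averaged 562 ± 195 and 670.4 ± 215 CPM in Lepr- and Lepr+ HSC (mean and SD over 5 libraries, in this order here and for all genes below). Slamf1, the gene of CD150, averaged 46.6 ± 13.4 and 41.3 ± 17.7 CPM, against 5.12 ± 3.83 CPM in Lepr- MPP. Cd48 averaged 14.3 ± 6.59 and 10.5 ± 5.06 CPM, against 50.6 ± 16.1 CPM in Lepr- MPP. Slamf1 was thus higher in both HSC groups than in Lepr- MPP, the side on which the CD150 gates lie. Cd48 was lower in both than in Lepr- MPP, although both gates are CD48-.

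Lepr itself (chr4:101717404-101815352, plus strand, GRCm38) was sparse at the RNA level. It stood at 0, 0.059, 0, 0 and 0.165 CPM in Lepr- HSC and at 0.356, 0.514, 7.98, 0.0759 and 9.36 CPM in Lepr+ HSC. Every pair had more in its Lepr+ library, but 3 of the 5 Lepr+ libraries held under 1 CPM, and the rest of the signal came from replicates 3 and 5. In counts these were 3 over all Lepr- HSC libraries and 384 over all Lepr+ HSC libraries, a ratio of 123 per library size with a 95% exact binomial interval of 41.6 to 597 that covers counting error only. With a log2 fold change of 6.01 ± 1.95 (SE), Lepr did not pass the test (adjusted p = 0.201, edgeR). The labels thus rest on the protein, and the transcript does not check them in each library.

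In Lepr+ HSC, 126 genes were called higher and 43 lower than in Lepr- HSC at an adjusted p under 0.05 (edgeR quasi-likelihood F test with the replicate number as a block, Benjamini-Hochberg adjustment over 16509 genes). That is 1.02% of the genes tested, 0.763% higher and 0.26% lower. Transcripts of stem cell regulators, of MHC class II, and of GTPases of the IRG (immunity-related) and GIMAP families were among those that rose. Platelet lineage transcripts and the cell cycle kinase gene Cdk6 were among those that fell. Changes were modest: the median log2 fold change was 1.09 for genes called higher (range 0.42 to 8.87) and -0.85 for those called lower (range -0.39 to -2.06). More than a 2-fold difference was reached by 74 of the 126 and 17 of the 43. Of the genes called higher, 124 were higher in 5 of 5 pairs and 2 in 4 of 5, and all 43 genes called lower were lower in 5 of 5. The 5 Lepr+ libraries all lay above the 5 Lepr- libraries for 74 of the 126, against 0.999% of all genes tested, and all below for 17 of the 43, against 0.618%. The called genes were chosen by a test on these same libraries. Their agreement between pairs and their lack of overlap therefore describe them and are not independent support.

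The number of calls rested on the pairing of the libraries and on fitting the MPP libraries together with the HSC libraries. Without the replicate block the same test called 16 genes higher and 1 lower (0.103% of genes tested), all of them among the 169. With the block but from only the 10 HSC libraries, 19 were called higher and 21 lower. Of these, 17 and 15 were among the 126 and 43. For the called genes described below, it is said whether the call held without the block. Leaving out 1 replicate number or 1 HSC library left 21 to 117 genes called higher and 2 to 60 called lower, with the fewest without replicate 3. No called gene changed sign in any of the 28 alternatives, June pairs alone and July pairs alone included, but neither month alone called any gene.

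**Figure D1:**
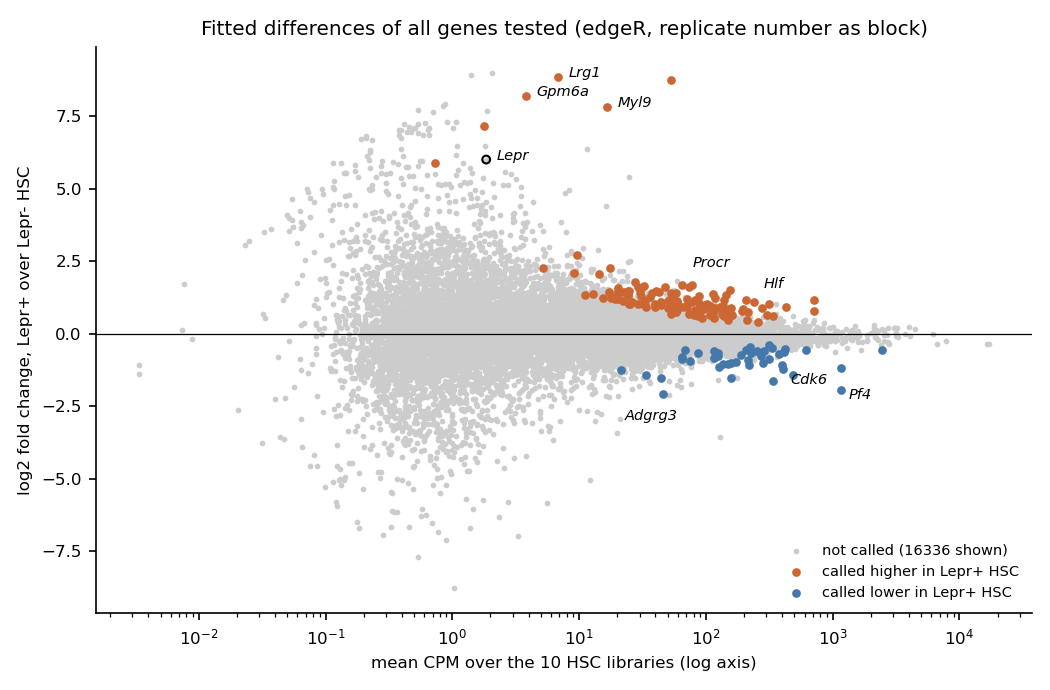
Each point is 1 gene tested that had a count in HSC, with its mean CPM over the 10 HSC libraries on a log axis and its fitted log2 fold change, Lepr+ over Lepr- HSC. Of the 169 called genes, all but Lrg1, Gpm6a, Myl9, Igkc, Zfp185 and Aplnr lie within a log2 fold change of 3, and Lepr (open circle) is not called.

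Hlf, Nkx2-3, Procr and Ly6a, genes known from HSC, rose and stayed called in each fit with a library or replicate number left out. Each was also higher in Lepr- MPP than in Lepr- HSC, so in these libraries none marked HSC over MPP. Means in Lepr- HSC and Lepr- MPP were 154 and 411 CPM for Hlf and 29.001 and 52.8 CPM for Nkx2-3. In the same order they were 30.9 and 46.04 CPM for Procr and 65.2 and 157 CPM for Ly6a. Robo4 went the same way (24.3 and 50.06 CPM) and Mllt3 the other (68.8 and 47.06 CPM). These HSC and MPP levels were not tested against each other. Of 29 transcription factors known from HSC that were tested, 4 rose (Hlf, Nkx2-3, Mecom and Mllt3), 2 fell, Gfi1b among them, and 23 did not pass, with a median log2 fold change of 0.43 against -0.03 for all genes tested. Of 22 stem cell surface markers tested, 3 rose (Procr, Ly6a and Robo4) and 19 did not pass, with a median of 0.32. With single libraries or replicates left out, 2 to 4 of the factors and 2 to 3 of the surface markers were called higher, and 0 to 1 of the factors lower. The gene lists here and below were chosen with earlier results of these data known. Their counts and medians therefore describe the listed genes and are not independent support.

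Hlf (chr11:90336536-90390895), a leucine zipper factor that maintains HSC, had the smallest p of all genes. It stood at 209, 155, 114, 125 and 165 CPM in Lepr- HSC and at 353, 291, 274, 319.6 and 389.5 CPM in Lepr+ HSC. All Lepr+ libraries lay above all Lepr- libraries. Its log2 fold change was 1.10 ± 0.10 (adjusted p = 0.00023, edgeR), and it was also called without the block (adjusted p = 0.012). Nkx2-3, a homeobox factor, stood at 40.8, 25.5, 23.2, 28.4 and 27.1 CPM in Lepr- HSC and at 62.1, 85.4, 60.8, 78.01 and 97.8 CPM in Lepr+ HSC. These groups did not overlap either, with a log2 fold change of 1.40 ± 0.19 (adjusted p = 0.00314, and 0.012 without the block, edgeR).

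Mecom, the gene of the HSC factor Evi1, stood at 97.96, 30.7, 82.8, 17.5 and 49.4 CPM in Lepr- HSC and at 183, 121, 155, 80.1 and 70.9 CPM in Lepr+ HSC. Each pair was higher in its Lepr+ library while the groups overlapped, and the call held only with the block (log2 fold change 1.29 ± 0.27, adjusted p = 0.031, and 0.561 without it, edgeR). Mllt3, a chromatin reader that supports HSC maintenance, followed the same pattern, from 68.8 ± 23.9 to 135 ± 33.9 CPM (adjusted p = 0.0261, and 0.333 without the block, edgeR). In the other direction, Gfi1b, a repressor needed for the red cell and platelet lineages, stood at 276, 266, 334, 289 and 238 CPM in Lepr- HSC and at 173, 144, 175, 169.7 and 98.1 CPM in Lepr+ HSC. Its groups did not overlap, although without the block the adjusted p was 0.144 (with it 0.0317, edgeR). In the 15 fits that left out a library or replicate number, Gfi1b was called in 0, Mecom in 3 and Mllt3 in 6, while Hlf and Nkx2-3 were called in all 15. Factors such as Meis1 (474 ± 97.95 and 538 ± 99.3 CPM), Runx1 (157 ± 21.1 and 138 ± 21.2 CPM) and Gata2 (497 ± 59.96 and 461 ± 60.6 CPM) did not pass the test.

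Procr (chr2:155751117-155755471) encodes the endothelial protein C receptor, by which HSC are enriched in cell sorting. It stood at 47.7, 29.3, 19.2, 34.4 and 23.8 CPM in Lepr- HSC and at 91.3, 119, 62.5, 90.6 and 132 CPM in Lepr+ HSC. The lowest Lepr+ library was above the highest Lepr- library, with a log2 fold change of 1.70 ± 0.24 (adjusted p = 0.00366, and 0.012 without the block, edgeR). Ly6a, the gene of the Sca-1 antigen that the sort itself used, stood at 119, 44.7, 40.7, 42.1 and 79.3 CPM in Lepr- HSC and at 250.2, 129, 143, 109 and 189 CPM in Lepr+ HSC. It was higher in 5 of 5 pairs, but Lepr- replicate 1 lay above Lepr+ replicate 4 and the call was lost without the block (log2 fold change 1.39 ± 0.19, adjusted p = 0.00314, and 0.129 without it, edgeR). Robo4, a receptor that anchors HSC in marrow, rose from 24.3 ± 9.3 to 71.6 ± 28.2 CPM (log2 fold change 1.62 ± 0.35, adjusted p = 0.0394, and 0.0695 without the block, edgeR), and was called in 2 of the 15 fits with a library or replicate left out. Procr and Ly6a were called in all 15. Other surface genes used to find HSC did not pass, among them Fgd5 (27.4 ± 16.95 and 53.4 ± 33.5 CPM) and Esam (220.0 ± 85.9 and 281 ± 82.8 CPM).

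**Figure D2:**
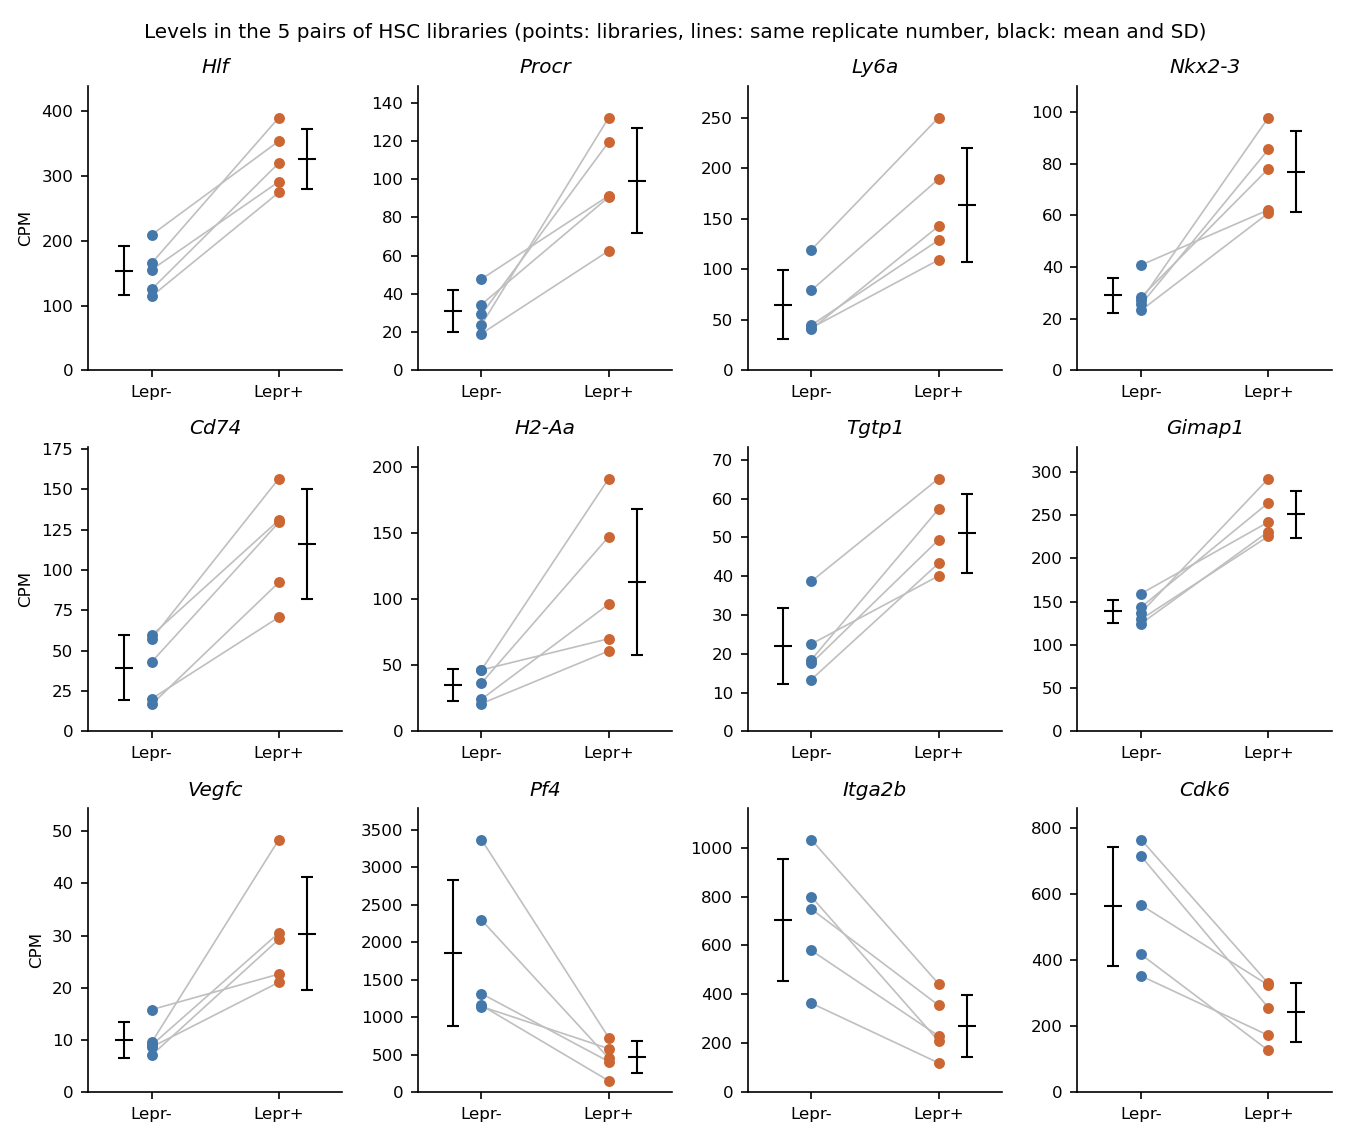
CPM of 12 genes in each HSC library, with lines joining the Lepr- and Lepr+ libraries of 1 replicate number and black marks for the mean and SD of 5 libraries. Hlf, Procr, Ly6a, Nkx2-3, Cd74, H2-Aa, Tgtp1, Gimap1 and Vegfc are higher and Pf4, Itga2b and Cdk6 lower in the Lepr+ library of 5 of 5 pairs.

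Transcripts of the platelet lineage fell in part. Of 20 megakaryocyte and platelet genes tested, 5 fell (Pf4, Itga2b, Slc14a1, F2r and Gp5), none rose and 15 did not pass, with a median log2 fold change of -0.97. None of the 5 was called without the block. Single left-out libraries or replicates left 0 to 5 members of the list called lower and 0 to 1 called higher. With no low-count filter and with a filter of 5 CPM, 22 and 21 members were tested, and 1 was called higher in each fit. In these bulk samples, fewer cells carrying a transcript and less of it per cell cannot be told apart.

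Pf4, the chemokine platelet factor 4, stood at 1159.9, 1145, 1316, 2298 and 3368 CPM in Lepr- HSC and at 155, 583, 411, 457 and 731 CPM in Lepr+ HSC. Every Lepr+ library lay below every Lepr- library. The Lepr- levels themselves spread widely between pairs, and the adjusted p was 0.00366 with the block and 0.25 without it (edgeR, log2 fold change -1.95 ± 0.28). Itga2b encodes CD41, the integrin chain of platelets and of platelet-biased stem cells. It stood at 364, 749, 1032, 579.9 and 799 CPM in Lepr- HSC and at 121, 356, 444, 231 and 210.2 CPM in Lepr+ HSC. The groups overlapped through Lepr- replicate 1, and the log2 fold change was -1.42 ± 0.25 (adjusted p = 0.0113, and 0.191 without the block, edgeR). F2r, the thrombin receptor, fell from 367 ± 92.3 to 196 ± 85.9 CPM (adjusted p = 0.00808, and 0.472 without the block, edgeR). Gp5, a subunit of the von Willebrand factor receptor, fell from 295 ± 132 to 145 ± 69.9 CPM (adjusted p = 0.0389, and 0.644 without the block, edgeR). Slc14a1, a urea transporter, fell from 511 ± 171 to 172 ± 84.4 CPM (adjusted p = 0.00676, and 0.0685 without the block, edgeR).

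Members of the platelet list did not move as 1 block. Vwf, which marks platelet-biased HSC, averaged 454 ± 198 and 280.1 ± 114 CPM and did not pass (log2 fold change -0.69 ± 0.40, adjusted p = 0.566, edgeR). Late platelet genes had positive, uncalled differences, with Ppbp at 22.5 ± 11.3 and 114 ± 173 CPM and Tubb1 at 6.28 ± 2.84 and 44.2 ± 43.6 CPM. Rap1b, the small GTPase that switches on the platelet integrin, was outside the list and fell from 1594 ± 492 to 721 ± 266 CPM (log2 fold change -1.17 ± 0.15, adjusted p = 0.00312, and 0.163 without the block, edgeR).

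Erythroid genes had the lowest median of the 20 lists, a log2 fold change of -1.64 over 24 genes tested, yet edgeR called none of them in either direction. By edgeR 9 were lower and 1 higher at an unadjusted p under 0.05 (5.49% and 6.31% of all genes were). Of the 24, DESeq2 called 7 and limma voom 4 lower. Over all genes, DESeq2 called 406 higher and 215 lower, and limma voom 263 and 166. The values of single libraries were uneven: Car1, a carbonic anhydrase of red cell precursors, stood at 101, 214, 732, 56.3 and 55.9 CPM in Lepr- HSC and at 0.317, 54.8, 29.9, 14.9 and 39.1 CPM in Lepr+ HSC (adjusted p = 0.153, edgeR). Every Lepr+ library lay below every Lepr- library, and Lepr- replicate 3 was far above the others. Gata1, the main erythroid and megakaryocyte factor, averaged 184 ± 67.2 and 64.9 ± 40.4 CPM (adjusted p = 0.25, edgeR). Granulocyte and monocyte progenitor genes had a median of 0.91 over 17 tested that changed sign in 1 alternative, with none called by edgeR. Of these 4 were higher and 1 lower at an unadjusted p under 0.05 by edgeR (6.31% and 5.49% of all genes were). DESeq2 called 4 and limma voom 1 of the 17 higher. Prtn3, a neutrophil granule protease, averaged 117 ± 51.6 and 201 ± 105 CPM, and Spi1, the gene of PU.1, 71.2 ± 15.98 and 101 ± 18.1 CPM. Among 17 lymphoid priming genes tested, the membrane adaptor gene Lax1 rose and the transcription factor gene Mef2c fell, the latter not called without the block (adjusted p = 0.0261, and 0.215 without it, edgeR). The median of -0.17 changed sign in 11 of the alternatives. Lax1 stood at 21.98, 14.7, 14.2, 9.85 and 6.26 CPM in Lepr- HSC and at 44.2, 39.2, 36.6, 39.8 and 49.2 CPM in Lepr+ HSC. Its groups did not overlap (log2 fold change 1.77 ± 0.23, adjusted p = 0.00312, and 0.0365 without the block, edgeR).

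The genes of the MHC class II molecule itself rose. Of 11 class II presentation genes tested, 4 were called higher (Cd74, H2-Aa, H2-Ab1 and H2-Eb1), none lower, and the median log2 fold change was 0.77. These 4 form the class II molecule and its invariant chain, which presents peptides to helper T cells. None was called without the block, while single left-out libraries or replicates left 2 to 5 members of the list called. The H2 genes are similar in sequence, so the split of reads between them is uncertain.

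Cd74, the invariant chain, stood at 57.3, 16.7, 43.02, 20.2 and 59.5 CPM in Lepr- HSC and at 157, 92.4, 129.6, 70.8 and 131 CPM in Lepr+ HSC. All Lepr+ libraries were higher than all Lepr- libraries (log2 fold change 1.69 ± 0.25, adjusted p = 0.0038, and 0.246 without the block, edgeR). H2-Aa, the class II alpha chain, stood at 46.5, 24.4, 21.03, 36.6 and 46.6 CPM in Lepr- HSC and at 70.2, 96.3, 60.9, 147 and 191 CPM in Lepr+ HSC. Here too the groups were apart (log2 fold change 1.63 ± 0.23, adjusted p = 0.00332, and 0.098 without the block, edgeR). H2-Ab1 rose from 66.2 ± 7.54 to 123 ± 28.4 CPM and H2-Eb1 from 13.2 ± 2.22 to 35.2 ± 10.8 CPM, both without overlap between groups (adjusted p = 0.0685 and 0.0885 without the block, edgeR). Ciita, the master activator of these genes, averaged 3.67 ± 1.52 and 5.09 ± 4.31 CPM and did not pass (adjusted p = 0.993, edgeR). No gene of 19 in MHC class I presentation was called (median 0.13). In edgeR 7 of the 19 were higher at an unadjusted p under 0.05 (6.31% of all genes were); DESeq2 called 1 and limma voom 1 of them higher. B2m, the class I light chain, averaged 1910.5 ± 294 and 2358 ± 471 CPM.

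Interferon-inducible GTPases rose in part. All 17 tested had a positive log2 fold change (median 0.94, with 47.7% positive among all genes tested), and 5 were called: Tgtp1, Tgtp2, Igtp, Irgm1 and Irgm2. All 5 are of the IRG family, some members of which attack vacuoles that hold microbes. The 10 guanylate-binding proteins, Iigp1 and Ifi47 were not called, and none of the 5 was called without the block. Single left-out libraries or replicates left 0 to 3 of the 17 called. Igtp and Irgm2 overlap on the same strand and Tgtp1 and Tgtp2 are near-identical copies, so reads within each of those pairs may be split wrongly.

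Interferons raise such genes through the interferon-stimulated response element, bound by a complex that holds Stat2 and Irf9, so the promoters of the 5 called IRG genes are shown. Each line gives the 120 bases before the gene's start, from RefSeq's GRCm38.p6 table, 5′ to 3′ on the gene's own strand, with every match to the element in capitals (a pair of GAAA repeats with any 2 bases between them, searched on both strands; in Irgm1 a pair of matches overlap).
Irgm1 (chr11:48871421-48871540, minus strand): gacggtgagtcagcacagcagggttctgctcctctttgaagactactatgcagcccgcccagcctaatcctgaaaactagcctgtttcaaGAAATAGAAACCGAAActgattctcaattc
Tgtp1 (chr11:48992247-48992366, minus strand): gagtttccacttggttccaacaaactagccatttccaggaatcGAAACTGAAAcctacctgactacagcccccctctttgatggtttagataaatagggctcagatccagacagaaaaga
Tgtp2 (chr11:49064213-49064332, minus strand): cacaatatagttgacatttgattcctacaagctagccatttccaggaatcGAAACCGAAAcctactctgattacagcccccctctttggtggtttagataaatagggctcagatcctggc
Igtp (chr11:58199436-58199555, plus strand): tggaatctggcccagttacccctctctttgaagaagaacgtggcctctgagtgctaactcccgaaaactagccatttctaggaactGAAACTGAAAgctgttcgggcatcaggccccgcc
Irgm2 (chr11:58214857-58214976, plus strand): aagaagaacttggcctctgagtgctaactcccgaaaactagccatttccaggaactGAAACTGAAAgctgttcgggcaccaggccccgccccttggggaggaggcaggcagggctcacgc
The first base of the match lay 77 bases before the start in Tgtp1, 70 in Tgtp2, 64 in Irgm2, 34 in Igtp and 30 and 24 in Irgm1. Counting windows from 250 bases before to 50 after the start, 3.99% of the 27025 genes in the table held the motif, and 3.86% of the 10912 genes tested that had a window. It was in 9 of the 10 interferon-inducible GTPases that had a window, in 11 of 18 genes of the type I interferon list, and in 0 of 8 GIMAP genes. Among the called genes with a window it was in 10 of 96 called higher (10.4%), of which 5 are the IRG genes above, and in 2 of 36 called lower (5.56%). Other motifs were searched in the same way. The letters AGATAA, bound by GATA factors, were in 11.5% of windows of genes called higher, 5.56% of those called lower, 8.08% of genes tested and 12.7% of all genes in the table. In the same order the CCAAT box was in 39.6%, 47.2%, 42.2% and 41.1%, and E2F motifs (TTTCCCGC or TTTGGCGC) in 2.08%, 2.78%, 3.37% and 1.8%. A match describes the letters of a window and is not a bound site.

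Tgtp1 stood at 38.7, 22.5, 17.5, 13.4 and 18.5 CPM in Lepr- HSC and at 65.2, 40.1, 49.4, 43.3 and 57.3 CPM in Lepr+ HSC. Its groups did not overlap, with a log2 fold change of 1.27 ± 0.19 (adjusted p = 0.00434, and 0.0685 without the block, edgeR). Irgm1 stood at 135, 104, 119, 124 and 139 CPM in Lepr- HSC and at 168, 191, 163, 164 and 181 CPM in Lepr+ HSC. The groups were apart by a small margin, from 124 ± 13.8 to 173 ± 12.2 CPM (log2 fold change 0.48 ± 0.10, adjusted p = 0.0394, and 0.205 without the block, edgeR), and Irgm1 was called in 0 of the 15 fits with a library or replicate left out. Igtp rose from 66.97 ± 16.7 to 122 ± 27.04 CPM, Irgm2 from 45.9 ± 10.8 to 86.9 ± 22.1 CPM and Tgtp2 from 103 ± 16.4 to 165 ± 39.5 CPM. Iigp1, another IRG gene, averaged 41.7 ± 17.98 and 81.2 ± 29.2 CPM without a call (adjusted p = 0.132, edgeR).

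Irf9, the DNA-binding part of that complex, was called by edgeR, alone among 18 interferon receptor, STAT and IRF genes tested (median 0.43). By edgeR 9 of the 18 were higher at an unadjusted p under 0.05 (6.31% of all genes were), and DESeq2 called 4 and limma voom 2 of them higher. It stood at 96.04, 69.8, 76.3, 100.3 and 60.6 CPM in Lepr- HSC and at 130.5, 121, 140.3, 159 and 186 CPM in Lepr+ HSC. Every Lepr+ library was higher, and the call held without the block (log2 fold change 0.89 ± 0.15, adjusted p = 0.00974, and 0.0411 without it, edgeR), although Irf9 overlaps Rnf31 and the reads carry no strand. Its partner Stat2 averaged 29.99 ± 14.5 and 44.4 ± 23.8 CPM and did not pass. Of 26 genes of the type I interferon response tested, Ifitm1 and Rtp4 rose, neither called without the block, and 24 did not pass (median 0.33). Of the 26, 23 had a positive log2 fold change and 10 were higher at an unadjusted p under 0.05 by edgeR, while DESeq2 called 4 and limma voom 3 higher. Ifitm1, a membrane protein that hinders virus entry, stood at 468, 314, 223, 529 and 575 CPM in Lepr- HSC and at 752, 817, 569.8, 851 and 2002 CPM in Lepr+ HSC. The groups overlapped narrowly, and Lepr+ replicate 5 was far above the other Lepr+ libraries (adjusted p = 0.00553, and 0.204 without the block, edgeR). Among those that did not pass, levels differed from gene to gene. Ifi44 averaged 34.9 ± 8.57 and 59.6 ± 20.7 CPM (adjusted p = 0.135, edgeR) and Dhx58, an RNA sensor, 21.2 ± 8.84 and 35.9 ± 10.6 CPM (adjusted p = 0.136, edgeR). The means of Ifit1 (11.5 ± 13.4 and 14.3 ± 19.3 CPM) and Oas1a (64.2 ± 13.5 and 67.03 ± 11.5 CPM) lay closer together.

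GIMAP GTPases, which support the survival of lymphocytes and HSC and lie in 1 cluster on chromosome 6, rose in part as well. Each of the 8 tested had a positive log2 fold change (median 1.33), and Gimap1, Gimap5 and Gimap6 were called. Single left-out libraries or replicates left 1 to 3 called. Gimap1 stood at 159, 129.7, 125, 144 and 137 CPM in Lepr- HSC and at 242, 226, 231, 264 and 292 CPM in Lepr+ HSC. The groups were well apart and the SD small, with a log2 fold change of 0.85 ± 0.11 (adjusted p = 0.00312, and 0.0145 without the block, edgeR). Gimap6 rose from 130.0 ± 54.6 to 285 ± 60.6 CPM (adjusted p = 0.00772, and 0.136 without the block, edgeR) and Gimap5 from 31.2 ± 9.3 to 69.5 ± 25.6 CPM (adjusted p = 0.0261, and 0.0941 without the block, edgeR). Gimap9 averaged 45.3 ± 11.1 and 61.5 ± 22.5 CPM and did not pass.

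Genes of cell division had mostly negative differences, nearly all of which fell short of the edgeR test. Of 24 mitosis genes tested, 22 had a negative log2 fold change (median -0.70), 11 were lower at an unadjusted p under 0.05 by edgeR against 5.49% of all genes, and Cdc20 was called. DESeq2 called 3 and limma voom 4 of the 24 lower. Cdc20, which activates the anaphase-promoting complex, stood at 191, 260.0, 266, 283 and 197 CPM in Lepr- HSC and at 126, 160.4, 178, 126 and 122 CPM in Lepr+ HSC. Its groups did not overlap, but the call was lost without the block (adjusted p = 0.0372, and 0.234 without it, edgeR) and in each of the 15 fits that left out a library or replicate. Of 26 DNA replication genes tested, 25 were negative (median -0.43) and none was called. By edgeR 13 of these were lower at an unadjusted p under 0.05, and DESeq2 called 1 and limma voom 1 of the 26 lower. In MPP the medians of the mitosis and replication lists were -0.43 and -0.45, with 3 genes positive in each. Mcm5, of the replicative helicase, averaged 521 ± 113 and 391 ± 76.9 CPM, and the proliferation marker Mki67 104 ± 113 and 52.2 ± 64.1 CPM, an SD as large as the mean.

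Among 21 genes of G1 control and quiescence tested, 3 rose (Cdkn1c, Ndn and Txnip) and Cdk6 fell. Cdk6, the kinase that sets how readily HSC leave quiescence, stood at 352, 765, 715, 567 and 417 CPM in Lepr- HSC and at 173, 329.8, 256, 324 and 127 CPM in Lepr+ HSC. Every Lepr+ library was below every Lepr- library (log2 fold change -1.22 ± 0.17, adjusted p = 0.00314, and 0.0885 without the block, edgeR). Cdkn1c, which encodes the inhibitor p57 that keeps HSC quiescent, stood at 8.1, 11.1, 7.11, 10.6 and 8.24 CPM in Lepr- HSC and at 18.3, 23.8, 17.6, 25.2 and 22.9 CPM in Lepr+ HSC. It too had no overlap, yet it was called in none of the 15 fits with a library or replicate left out (log2 fold change 1.25 ± 0.28, adjusted p = 0.0481, and 0.144 without the block, edgeR). Ndn, or necdin, a growth suppressor, rose from 35.5 ± 7.33 to 71.1 ± 12.7 CPM (adjusted p = 0.0113, and 0.098 without the block, edgeR). Txnip, which restrains thioredoxin and glucose uptake, rose from 520.0 ± 175 to 898 ± 279.5 CPM (adjusted p = 0.0038, and 0.395 without the block, edgeR). The kinase inhibitors Cdkn1a (4.67 ± 2.01 and 6.32 ± 3.59 CPM) and Cdkn1b (8.5 ± 3.07 and 17.2 ± 16.05 CPM) did not pass.

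**Figure D3:**
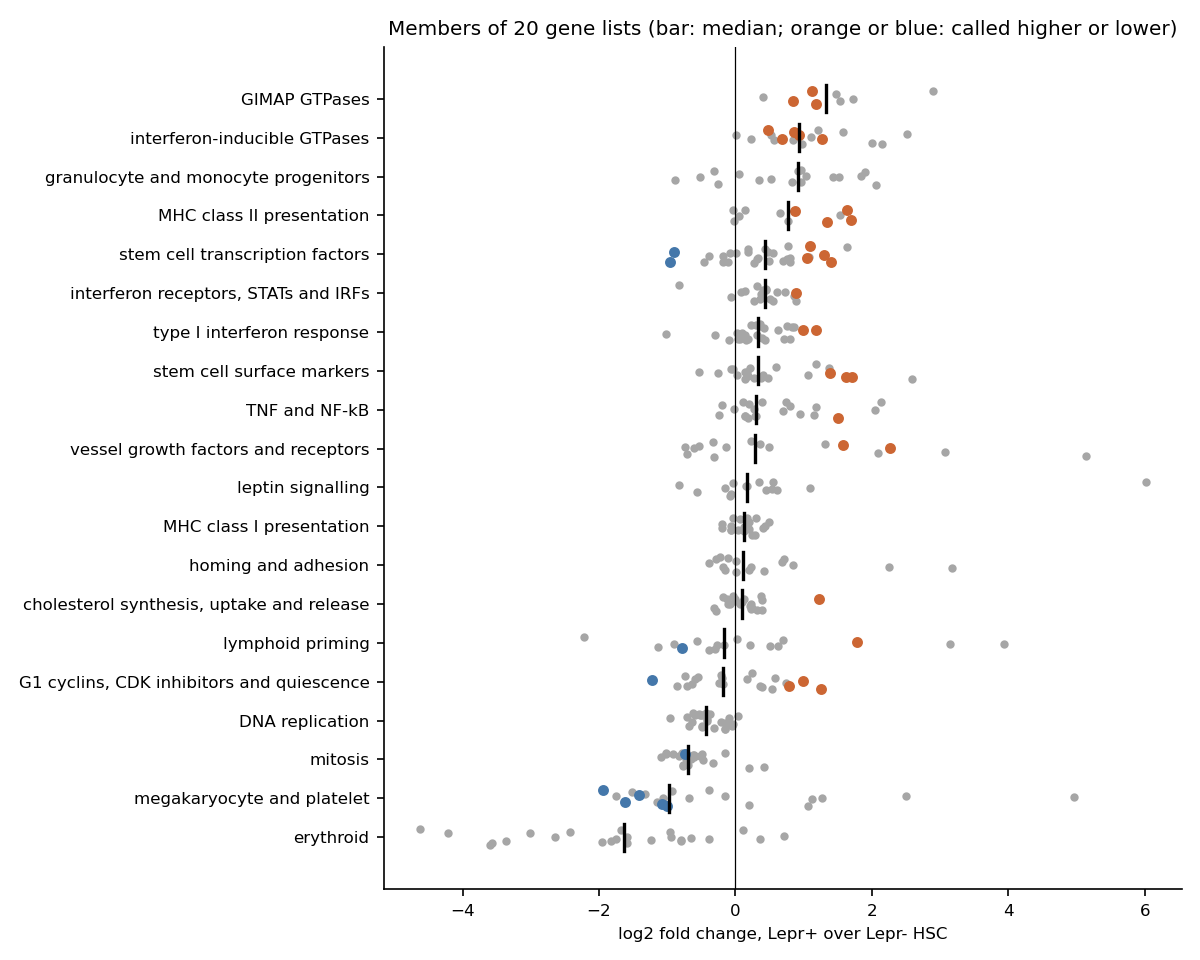
Log2 fold changes, Lepr+ over Lepr- HSC, of each tested member of 20 gene lists, with a bar at the median of each list and called genes in colour. GIMAP GTPases have the highest median (1.33) and erythroid genes the lowest (-1.64), the latter with no member called by edgeR.

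Gas6, Vegfc and Ltb, which signal to other cells, rose. Of 16 vessel growth factors and receptors tested, Gas6 and Vegfc rose, both also without the block. Neither was called without replicate 3, without replicate 5, from only the 10 HSC libraries, or without the pair of Lepr+ libraries with plasma cell transcripts or the pair with most Lepr transcript. Of the 15 fits with a library or replicate number left out, Gas6 was called in 8 and Vegfc in 13. Gas6, the ligand of the receptors Tyro3, Axl and Mertk, stood at 10.2, 1.71, 3.46, 9.85 and 5.93 CPM in Lepr- HSC and at 24.3, 31.96, 25.6, 17 and 44.3 CPM in Lepr+ HSC. The groups did not overlap (log2 fold change 2.27 ± 0.45, adjusted p = 0.0261, and 0.0347 without the block, edgeR). Vegfc, the lymphatic growth factor, stood at 15.8, 8.67, 9.02, 7.11 and 9.56 CPM in Lepr- HSC and at 22.6, 21.1, 30.5, 29.3 and 48.4 CPM in Lepr+ HSC. Again every Lepr+ library was higher (log2 fold change 1.57 ± 0.26, adjusted p = 0.00731, and 0.0266 without the block, edgeR). Of the receptors, Axl averaged 26.4 ± 4.4 and 36.03 ± 12.4 CPM and Flt4 2.1 ± 2.22 and 7.95 ± 13.3 CPM, neither called. Ltb, the membrane form of lymphotoxin, was called by edgeR, alone among 21 TNF and NF-kB genes tested (median 0.30). By edgeR 9 of the 21 were higher at an unadjusted p under 0.05 (6.31% of all genes were), and DESeq2 called 4 and limma voom 2 of them higher. Ltb stood at 88.2, 69.1, 44.9, 109 and 79.4 CPM in Lepr- HSC and at 177, 179, 142, 228 and 433 CPM in Lepr+ HSC. The groups were apart, with Lepr+ replicate 5 the highest (log2 fold change 1.51 ± 0.18, adjusted p = 0.00312, and 0.0266 without the block, edgeR). Tgfb1, the cytokine that holds HSC in quiescence, fell from 48.9 ± 9.59 to 18.5 ± 5.06 CPM without overlap (adjusted p = 0.00468, and 0.109 without the block, edgeR).

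In the cholesterol list, edgeR called only Nceh1 of 21 tested. Nceh1, which releases cholesterol from its stored esters, stood at 102, 81.5, 54.7, 66.8 and 50.3 CPM in Lepr- HSC and at 133, 181, 146, 178 and 179.9 CPM in Lepr+ HSC. No library of one group reached into the other (log2 fold change 1.23 ± 0.17, adjusted p = 0.00332, and 0.012 without the block, edgeR). Genes of cholesterol synthesis did not pass, with Sqle at 85.4 ± 15.9 and 88.01 ± 37.04 CPM. None of 16 homing and adhesion genes was called. By edgeR 2 were higher and 0 lower at an unadjusted p under 0.05 (6.31% and 5.49% of all genes were). DESeq2 called 2 and 0 and limma voom 0 and 0 of the 16 higher and lower. Cxcr4, the receptor for Cxcl12, averaged 18.6 ± 9.53 and 14.96 ± 6.52 CPM.

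No gene of the leptin pathway, Lepr included, was called among 15 tested (median 0.16). By edgeR 4 were higher and 0 lower at an unadjusted p under 0.05 (6.31% and 5.49% of all genes were). DESeq2 called 1 and 0 and limma voom 0 and 0 of the 15 higher and lower. Stat3 stood at 195, 238, 273, 128 and 106 CPM in Lepr- HSC and at 253, 215, 303, 189.9 and 262 CPM in Lepr+ HSC. Those groups overlapped, and the log2 fold change was 0.45 ± 0.18 (adjusted p = 0.299, edgeR). Socs3, a feedback inhibitor that STAT3 turns on, averaged 3.22 ± 1.28 and 9.18 ± 6.73 CPM (adjusted p = 0.514, edgeR). Cish, a target of STAT5, averaged 32.8 ± 6.84 and 49.7 ± 6.99 CPM without overlap between the groups and without a call (adjusted p = 0.353, edgeR). Leprot, which controls how much receptor reaches the surface, averaged 97.3 ± 13.97 and 108 ± 20.4 CPM (adjusted p = 0.729, edgeR).

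The largest rises by fold were of genes near zero in Lepr- HSC: Lrg1, Igkc, Gpm6a, Myl9, Zfp185 and Aplnr. Igkc and Aplnr are described further on with the markers of other cell types. Zfp185, which encodes a zinc finger protein, averaged 0.149 ± 0.332 and 3.39 ± 3.22 CPM with overlap between the groups, and was called in none of the 15 fits with a library or replicate number left out (adjusted p = 0.0481, and 0.722 without the block, edgeR). Lrg1, a secreted glycoprotein known from neutrophils and vessels, stood at 0, 0, 0, 0.171 and 0.0824 CPM in Lepr- HSC and at 5.06, 14.8, 20.6, 9.49 and 18.4 CPM in Lepr+ HSC. In counts this was 3 against 1428, a ratio of 456 per library size (95% interval 156 to 2212, counting error only; adjusted p = 0.00332, and 0.0266 without the block, edgeR). Gpm6a, a membrane glycoprotein known from neurons, stood at 0, 0, 0.0368, 0.0857 and 0 CPM in Lepr- HSC and at 0.831, 3.96, 9.98, 3.95 and 19.6 CPM in Lepr+ HSC. It had 2 against 680 counts, a ratio of 325 (95% interval 89.7 to 2693; adjusted p = 0.00312, and 0.0266 without the block, edgeR). Myl9, a myosin light chain of contractile cells, stood at 0.371, 0, 0, 0 and 0 CPM in Lepr- HSC and at 3.88, 4.32, 27.6, 14.5 and 116 CPM in Lepr+ HSC. All Lepr+ libraries were higher for Lrg1, Gpm6a and Myl9, but over a wide range (Myl9 adjusted p = 0.0387, and 0.0695 without the block, edgeR).

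Leaving out genes whose mean stayed under 5 CPM in both groups, other large rises were of Unc45b, a myosin chaperone (2.73 ± 1.67 to 16.7 ± 6.33 CPM), Traf3ip2, the adaptor of interleukin 17 receptors (2.08 ± 1.96 to 8.38 ± 1.45 CPM), the transcription factor gene Creb5 (3.69 ± 2.49 to 14.4 ± 8.08 CPM), Klhl3, a ubiquitin ligase adaptor (6.39 ± 5.93 to 22.4 ± 7.84 CPM), and the stress pseudokinase gene Trib3 (14.9 ± 4.42 to 50.5 ± 30.2 CPM). Their adjusted p were 0.00772, 0.0498, 0.0498, 0.0261 and 0.00676 (edgeR), and none was called without the block (0.0685, 0.169, 0.578, 0.291 and 0.0685). The largest fall was of Adgrg3, an adhesion receptor of granulocytes, from 73.1 ± 22.9 to 18.5 ± 14.95 CPM (adjusted p = 0.0394, and 0.107 without the block, edgeR). Runx3, a transcription factor of the Runt family, fell from 64.7 ± 20.7 to 23.2 ± 11.4 CPM without overlap (adjusted p = 0.00936, and 0.0705 without the block, edgeR). Tuba8, a tubulin (231 ± 76.1 to 85.9 ± 58.97 CPM), the kinase gene Bmp2k (30.05 ± 12.3 to 13 ± 5.66 CPM) and Pdcd4, an inhibitor of translation (543 ± 196 to 255 ± 93.4 CPM), fell as well. Their adjusted p were 0.0394, 0.0296 and 0.00772 (edgeR), and 0.339, 0.204 and 0.13 without the block. The only gene called lower without the block was Rabgap1l, an activator of Rab GTPases, chosen here after its values were seen. It stood at 179, 164, 185, 188 and 195 CPM in Lepr- HSC and at 109.6, 84.1, 88.03, 84.2 and 78.4 CPM in Lepr+ HSC. Its libraries were even within each group and well apart between them (log2 fold change -1.03 ± 0.15, adjusted p = 0.00366, and 0.0145 without the block, edgeR).

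Transcripts of other cell types moved with the receptor in some pairs. The summed level of 18 stromal markers ran from 16.5 to 255 CPM in Lepr- HSC and from 44.5 to 249 CPM in Lepr+ HSC, higher in 4 of 5 pairs. The 255 CPM were in Lepr- replicate 3 (other Lepr- libraries at most 48.2), and the medians were 37.2 and 139 CPM. Of the 17 tested edgeR called none, and 6 were higher at an unadjusted p under 0.05 by edgeR (6.31% of all genes were). DESeq2 called 5 and limma voom 2 of them higher. Cxcl12, which stromal cells make in bulk, stood at 0.675, 0.059, 0.111, 0 and 8.16 CPM in Lepr- HSC and at 4.43, 41.9, 64.5, 0.304 and 42.7 CPM in Lepr+ HSC (adjusted p = 0.135, edgeR). Adipoq, another stromal transcript, stood at 0.0338, 0, 0, 0 and 0 CPM in Lepr- HSC and at 0.752, 8.27, 8.99, 0 and 0 CPM in Lepr+ HSC. It was highest in Lepr+ replicates 2 and 3. Ebf3 was at 0 in every Lepr- library. Of 14 endothelial markers, summed at 343 to 400.2 CPM in Lepr- HSC and 421 to 626 CPM in Lepr+ HSC, Aplnr was called higher (2 against 181 counts, nearly all in Lepr+ replicates 1, 2 and 3; adjusted p = 0.0481, and 0.115 without the block, edgeR) and Sox17 was at 0 in Lepr- HSC. Tie1, the most abundant of them, averaged 204 ± 31.3 and 261 ± 30.5 CPM. The endothelial sum was higher in 5 of 5 pairs. Of the 13 endothelial markers tested, 12 had a positive log2 fold change (median 0.98). By edgeR 5 of the 13 were higher at an unadjusted p under 0.05 (6.31% of all genes were). DESeq2 called 2 and limma voom 2 of the 13 higher.

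Plasma cell markers summed to 6.60 to 19.3 CPM in Lepr- HSC. In Lepr+ HSC they reached 667 CPM in replicate 2 and 532 CPM in replicate 3, and 8.12 to 19.1 CPM in the others. Igkc, the kappa chain, was called higher from those libraries (adjusted p = 0.0498, and 0.144 without the block, edgeR), and in 2 of the 15 fits with a library or replicate left out, while Mzb1 was at 0 in Lepr- HSC. Macrophage and monocyte markers summed to 453 to 692 CPM in Lepr- HSC and 554 to 821 CPM in Lepr+ HSC, most of it Lyz2 (448 ± 76.3 and 568 ± 95.6 CPM), with none of 10 called by edgeR. At an unadjusted p under 0.05 by edgeR, 0 were higher and 1 lower (6.31% and 5.49% of all genes were). DESeq2 called 1 lower and limma voom 0. T and NK cell markers summed to 98.9 to 231 CPM and 52.3 to 152 CPM, nearly all from Nkg7, a granule protein gene that HSC libraries also held and that fell (adjusted p = 0.00366, and 0.204 without the block, edgeR), with Cd3g and Cd8a at 0 in both groups. B cell markers summed to 43.4 to 104 and 45.5 to 67.4 CPM, with Blk at 0 in both. Neutrophil markers ran from 1.62 to 55.0 CPM and from 0.15 to 243 CPM, dendritic cell markers from 0.99 to 14.3 and from 0.21 to 27.2 CPM, and mast cell and basophil markers from 4.49 to 28.5 and from 0.95 to 301 CPM. The 243 CPM were in Lepr+ replicate 3 (other Lepr+ libraries at most 18.8) and the 301 CPM in Lepr+ replicate 1 (others at most 12.4). Of these 3 lists, 3 of 8, 2 of 8 and 6 of 6 markers were tested. None of those tested was called by edgeR, DESeq2 or limma voom, or lay at an unadjusted p under 0.05 by edgeR (0 in each list). The part of such cells in the differences above was not tested.

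Without Lepr+ replicates 2 and 3, which held the plasma cell transcripts, 48 genes were called higher and 22 lower, of which 45 and 18 were among the 126 and 43. Without Lepr+ replicates 3 and 5, which held most Lepr, 22 and 6 were called, of which 21 and 4 were among them. Both choices were made after these libraries' values were seen, and each leaves 3 Lepr+ HSC libraries. In those fits no gene of the 169 that was tested changed sign, which the agreement between pairs had largely set beforehand. The counts called higher and lower were 3 and 0 and then 2 and 0 of the stem cell factors, 2 and 0 and then 2 and 0 of the class II genes, 1 and 0 and then 1 and 0 of the interferon-inducible GTPases, 3 and 0 and then 1 and 0 of the GIMAP genes and 0 and 3 and then 0 and 0 of the platelet genes. From only the 10 HSC libraries, they were 1 and 2 of the stem cell factors and 1 and 0 of the stem cell surface markers. That fit called 1 and 0 of the class II genes, 0 and 0 of the interferon-inducible GTPases, 2 and 0 of the GIMAP genes and 0 and 3 of the platelet genes.

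**Figure D4:**
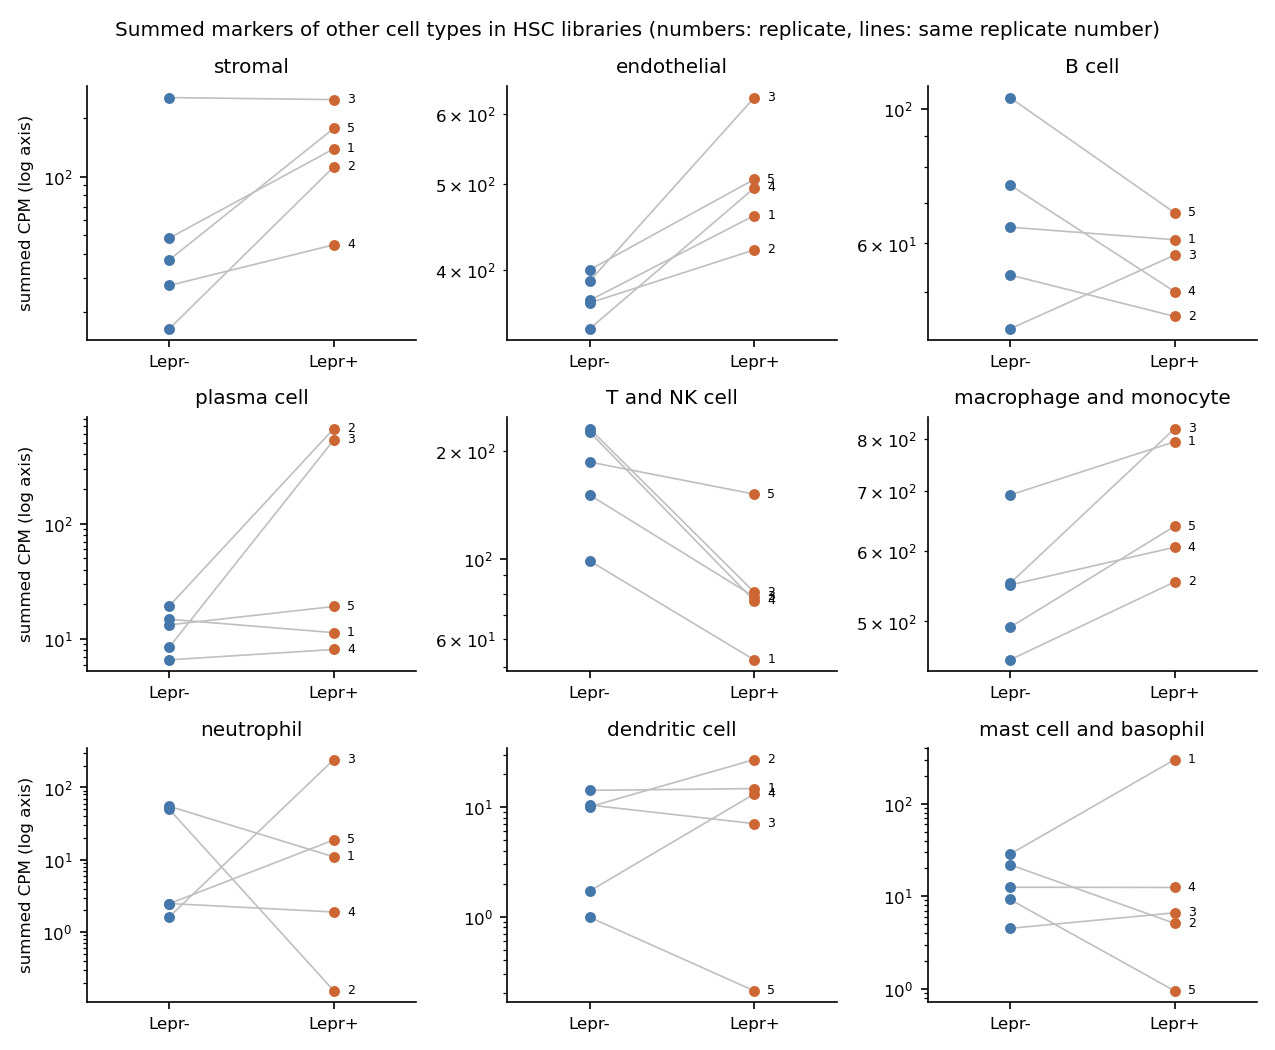
Summed CPM of 9 lists of markers of other cell types in each HSC library, on log axes that differ between panels, with lines joining the libraries of 1 replicate number and numbers giving the replicate. Plasma cell markers stand at 667 and 532 CPM in Lepr+ replicates 2 and 3, and stromal markers are higher in the Lepr+ library of 4 of 5 pairs.

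The same contrast in MPP, which uses other libraries with the same replicate numbers, shows how far the HSC differences were shared. Of the 126 genes called higher in HSC, 105 (83.3%) had a positive log2 fold change in MPP, against 47.9% of all genes tested. Of the 43 called lower, 39 (90.7%) were negative there, against 52.1%. These genes were chosen by their HSC values. Their changes were smaller in MPP for 120 of the 126 and all 43, with medians of 0.28 and -0.22. In MPP 17 genes were called in all (0.103%). Of the HSC calls, 6 were also called higher in MPP (Lrg1, Gpm6a, Igkc, Aplnr, Cd74 and Ndn) and none lower. Markers of other cells also differed in MPP: stromal markers summed to 47.5 to 87.4 CPM in Lepr- MPP and 207 to 4285 CPM in Lepr+ MPP, and plasma cell markers to 93.3 to 233 and 45.3 to 4578 CPM. Endothelial markers summed to 270 to 347 CPM in Lepr- MPP and 378 to 974 CPM in Lepr+ MPP. The part of such cells in the MPP values was not tested.

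No gene passed the test of a different Lepr effect between HSC and MPP (0 of 16509 by edgeR, with 830 at an unadjusted p under 0.05; 97 by DESeq2 and 0 by limma voom). Single genes ranged from equal to far apart in value. Cd74 had a log2 fold change of 1.69 ± 0.25 in HSC and 1.84 ± 0.25 in MPP (adjusted p = 0.00903, edgeR). Ndn had 1.00 ± 0.18 and 1.01 ± 0.18 (adjusted p = 0.0354 in MPP, edgeR). By contrast Pf4, at 31 ± 24.99 and 30.3 ± 25.1 CPM in Lepr- and Lepr+ MPP, had -1.95 ± 0.28 in HSC and 0.01 ± 0.28 in MPP, and the difference of the changes was -1.96 ± 0.39 (adjusted p = 0.424, edgeR). Hlf averaged 411 ± 55.1 and 504 ± 37.7 CPM in Lepr- and Lepr+ MPP, so that Lepr+ HSC at 326 ± 46.8 CPM remained below both. For Hlf the difference of the changes was 0.79 ± 0.14 (adjusted p = 0.204, edgeR). Nceh1, at 164 ± 10.9 and 162 ± 21.6 CPM in MPP, had -0.02 ± 0.17 there and a difference of the changes of 1.25 ± 0.24 (adjusted p = 0.323, edgeR). Lax1 had 0.02 ± 0.22 in MPP and a difference of 1.76 ± 0.31 (adjusted p = 0.204, edgeR).

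**Figure D5:**
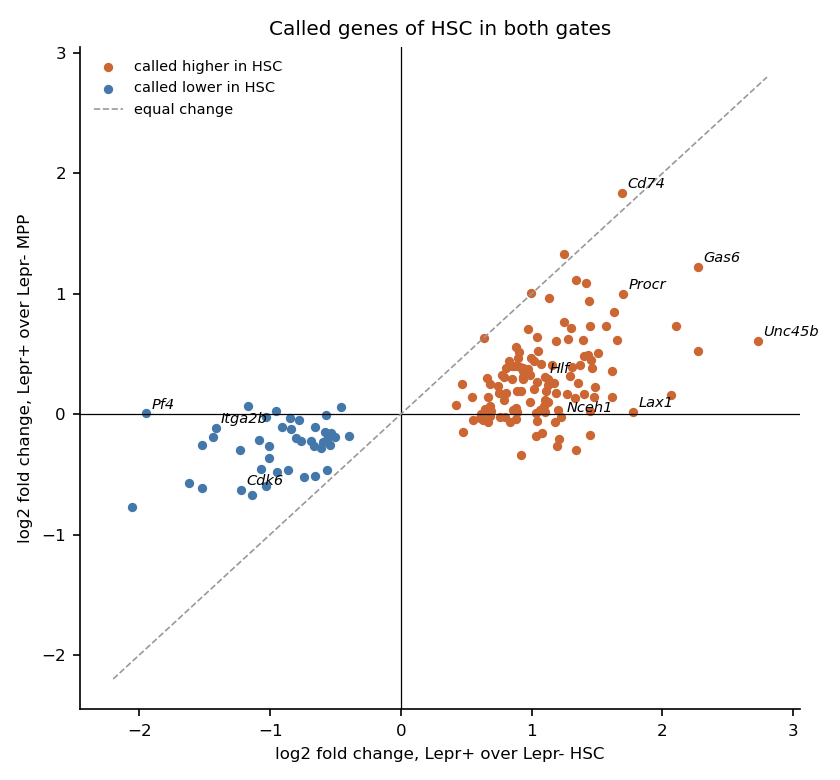
Fitted log2 fold changes, Lepr+ over Lepr-, of 163 genes called in HSC, with HSC on the horizontal and MPP on the vertical axis; 6 genes beyond a log2 fold change of 3 are left out. Most points lie between the horizontal axis and the dashed line of equal change, with 105 of all 126 genes called higher in HSC above 0 in MPP.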

How the data were processed

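RNA from 20 libraries was measured, 5 for each cell type with and without surface Lepr. The deposited files give raw counts of read pairs per gene, 1 table per library, for 55573 gene IDs and 5 closing rows of unassigned pairs, which were left out. Per the submitters' processing notes, reads were handled with STAR 2.7.1a, HTSeq 0.11.2, cutadapt 2.1 and FastQC 0.11.8 on GRCm38, and DESeq2 is named without a version. Per the labels' protocols, cDNA came from a SMART-Seq v4 kit and libraries from Nextera XT, unstranded, sequenced as pairs on a NovaSeq6000. How HTSeq resolved ambiguous pairs is not given in the sources used here, so reads of near-identical or overlapping genes may be split wrongly. A label speaks of RNA depleted of ribosomal RNA without naming the step.

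Symbols, positions and gene types came from GENCODE M21, which matched 55180 of the IDs. The test was edgeR 4.0.16's quasi-likelihood F test (R 4.3.3, robust dispersion, TMM, genes kept by filterByExpr at a count of 10 and a total of 15) on all 20 libraries, with group and replicate number as terms and Benjamini-Hochberg adjustment over 16509 genes. Log2 fold changes carry their fitted SE and CPM their SD. Totals of 9532993 to 31589794 counts per library set the precision. Intervals hold counting error alone, as the PCR copies carry no molecular identifiers, and p-values measure only the spread between these samples, each of 2 mice.

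The replicate number was taken to pair libraries from the design text and the file dates. Deviations from each group's mean were checked. The 5 HSC pairs of the same number correlated at 0.119 to 0.562 (median 0.191). The 20 pairs of different numbers correlated at -0.351 to 0.346 (median -0.149), so the ranges overlapped. Lepr+ replicate 2 correlated at 0.167 with Lepr- replicate 4 and at 0.119 with Lepr- replicate 2. Lepr+ replicate 5 correlated at 0.175 with Lepr- replicate 4 and at 0.145 with Lepr- replicate 5. Over all groups, the 30 pairs of the same number had a median of 0.264 and a lowest value of -0.0647. The block was made the main design with the knowledge that it calls more genes, and results without it stand beside it.

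The members, gene lists, naming rule and tests were chosen with earlier results of these data known. Genes were named as the 12 largest rises and 12 largest falls among called genes with a higher group mean of 5 CPM or more and 4 or 5 of 5 pairs in 1 direction, leaving out predicted, clone, antisense and receptor segment names. To these were added up to 4 members of each of 20 gene lists by smallest p, and Lepr, Leprot, Slamf1, Cd48, Ly6a and Kit. Other genes given, among them markers of other cell types, further list members and called genes such as Mecom, Gfi1b, Gp5 and Irgm1, were chosen after their values were seen. Promoters came from a RefSeq table for GRCm38.p6, which held windows for 132 of the 169 called genes. Alternatives were no block, only the HSC libraries, DESeq2 1.42.0, limma 3.58.1 voom, other size factors and filters, months and left-out libraries. The edgeR step was tested on simulated data. A few genes that belong to the lists or were named by the rule are not reported here, while counts, sums and medians over lists include them.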

Additional observations from a re-analysis of the deposited data

Results flagged for a closer look

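In groups of 5 libraries, a single library is singled out here when its gap to the nearest of the others, divided by the range of the group, passes Dixon's 95% value of 0.71. Of 198 groups (99 named genes in Lepr- HSC and in Lepr+ HSC), 16 had such a library (8.08%). Dixon's value holds for independent, normally distributed values. Here it was applied to raw CPM, some very low, of genes that share libraries and were named partly by their values. The share therefore cannot be compared with a chance rate, and the rule only picks out libraries to describe. No explanation was tested for any of these libraries.

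Lepr+ HSC replicate 5 was the one set apart in 5 cases. Myl9 stood at 116.5 CPM there, against at most 27.6 CPM in the other Lepr+ libraries. In the same library Unc45b stood at 27.86 CPM (others at most 14.9), Trib3 at 103.1 CPM (at most 49.0), the neutrophil protease gene Prtn3 at 382.7 CPM (at most 190.0) and Ifitm1 at 2002 CPM (at most 851).

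Lepr- replicate 3 was high for Mef2c at 522.4 CPM (others at most 331), Car1 at 731.9 CPM (at most 214) and Bmp2k at 51.46 CPM (at most 28.2). Pklr, a pyruvate kinase of red cells and liver, stood at 1.19 CPM in Lepr+ replicate 3 and at no more than 0.154 CPM in the others.

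Lepr- replicate 1 was low for Tuba8 at 99.18 CPM (others at least 245) and for the biliverdin reductase gene Blvrb at 78.65 CPM (at least 121). The same library was high for Vegfc at 15.84 CPM (others at most 9.56) and Gimap5 at 47.38 CPM (at most 30.6), and held the only Lepr- reads of Myl9, at 0.3715 CPM. The integrin gene Itgb7 stood at 23.95 CPM in Lepr- replicate 2 (others at most 15.4), and the mitotic kinase gene Aurkb at 77.07 CPM in Lepr+ replicate 2 (others at least 105).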

How the results depend on the processing

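Against 126 genes called higher and 43 lower, the fit with no replicate block called 16 and 1, that with only the 10 HSC libraries 19 and 21, DESeq2 406 and 215, limma voom 263 and 166, and that with no low-count filter 82 and 33. June pairs alone and July pairs alone called 0 and 0, with 1745 and 519 genes at an unadjusted p under 0.05 by edgeR. Leaving out Lepr+ replicates 2 and 3 together (48 and 22) or 3 and 5 together (22 and 6), both chosen after seeing the data, lowered the counts. Leaving out 1 replicate number or HSC library gave 21 to 117 higher and 2 to 60 lower. The higher count fell by over 1.5 times without any of the 5 replicate numbers, without Lepr+ replicates 1, 3, 4 or 5, and without Lepr- replicates 2, 3, 4 or 5, and was lowest (21, with 2 lower) without replicate 3. The lower count fell as far without every replicate number and every HSC library but Lepr+ replicate 2. Fewer samples were tested in these fits; otherwise the cause was not tested. Other size factors, library totals, a filter of 5 CPM and leaving out the 3 libraries least like their groups kept the counts within 1.5 times.

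No call for a differing Lepr effect in HSC and MPP was made with the block. DESeq2 gave 97, no low-count filter 2, June pairs alone 1, leaving out 1 replicate number or HSC library 0 to 2, and the pairs of left-out libraries 3 and 2. The cause was not tested. With the replicate block removed the count was again 0 (529 at an unadjusted p under 0.05 by edgeR).

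Over the 100 named genes and 28 alternatives, 2203 values kept their direction and their side of the threshold, 517 lost the call, 64 gained it and 10 changed sign. All 10 were of Slamf1, whose uncalled log2 fold change of -0.07 became 0.042 with library totals, 0.20 for July pairs alone, and 0.37 and 0.14 without the pairs of libraries named above. It ran from -0.90 to 0.33 with 1 replicate number or HSC library left out, positive without replicates 1, 2 and 5, Lepr+ replicates 2 and 5 and Lepr- replicate 4. The median log2 fold change of all genes stayed between -0.06 and 0.05. Levels of a few counts, as for Lepr and Lrg1 in Lepr- HSC, are limited by depth, and their fitted fold changes are no bounds.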

Other observations

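Called genes outside the lists, chosen here after their values were seen, included a few that encode lysosomal proteins; no list of such genes was tested. The cathepsin genes Ctsh (11.5 ± 6.47 to 27.4 ± 10.5 CPM), Ctsl (37.1 ± 6.82 to 81.3 ± 16.8 CPM) and Ctsf (49.1 ± 11.03 to 94.04 ± 23.2 CPM) rose, as did Sgsh, a lysosomal sulfatase (14.5 ± 4.36 to 30.3 ± 4.68 CPM), and Laptm4b, a lysosomal membrane protein (21.3 ± 7.62 to 59.1 ± 27.9 CPM). Their log2 fold changes were 1.31, 1.13, 0.92, 1.12 and 1.47, with adjusted p of 0.0261, 0.0296, 0.0261, 0.0275 and 0.00529 (edgeR) and none called without the block. Receptor genes that rose were Calcrl, for adrenomedullin and related peptides (88.4 ± 36.2 to 170.3 ± 59.6 CPM), Esr1, the oestrogen receptor alpha (16.5 ± 4.79 to 35.6 ± 14.98 CPM), Vdr, the vitamin D receptor (25.4 ± 13.2 to 59.6 ± 8.07 CPM), and Il2rg, the common gamma chain of interleukin receptors (27.3 ± 7.04 to 51.8 ± 10.3 CPM). Their adjusted p were 0.0481, 0.0471, 0.0421 and 0.0213 (edgeR), and none was called without the block (0.299, 0.119, 0.369 and 0.0806).

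The lactate dehydrogenase subunits went opposite ways. Ldhb stood at 115, 83.5, 63.2, 85.2 and 86.1 CPM in Lepr- HSC and at 202, 158, 168, 169 and 265 CPM in Lepr+ HSC. Its groups did not overlap, and it was also called without the block (log2 fold change 1.16 ± 0.17, adjusted p = 0.00366, and 0.0211 without it, edgeR). Ldha fell from 2904 ± 891 to 1979 ± 582 CPM (log2 fold change -0.54 ± 0.11, adjusted p = 0.0261, and 0.729 without the block, edgeR). Further genes that fell were Srm, the spermidine synthase (464 ± 93.4 to 286 ± 42.8 CPM), Cycs, cytochrome c (139 ± 38.8 to 91.8 ± 22.98 CPM), and the clamp loader subunits Rfc2 (387 ± 30.9 to 276 ± 43.99 CPM) and Rfc5 (302 ± 56.9 to 203 ± 38.1 CPM). None of these was called without the block.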
